A study of Mus musculus with 6 samples.

Results

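Haemoglobin is a tetramer of paired alpha-type and beta-type chains, each holding a haem group, and the genes of its chains sit in separate alpha and beta clusters. The genes described here are the alpha-type Hba-a1, Hba-a2 and Hba-x, the beta-type Hbb-bt, Hbb-bs, Hbb-bh1 and Hbb-y, and Ahsp, the chaperone that holds free alpha chains until they pair. They were chosen by name, and 7 of the 8 were found among the 55487 genes of the count table, while Ahsp was not analysed here. RNA came from megakaryocyte-erythroid progenitors, the marrow precursors of red cells and platelets, which were sorted from 8-week-old C57BL/6 mice of wild-type genotype. The control group had 3 libraries, and the other 3 came from mice fasted for 6 h. The study asked how fasting acts on red cell production. The labels do not say whether a library is 1 mouse or a pool, so p-values measure only the spread between these libraries.

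Adult red cells carry chains of Hba-a1, Hba-a2, Hbb-bs and Hbb-bt, the last pair being the beta genes of the haplotype that C57BL/6 mice carry. Hba-x (zeta), Hbb-y (epsilon-y) and Hbb-bh1 (beta-h1) encode embryonic chains made in primitive red cells of the yolk sac, and the embryonic beta-type genes are silenced in adult cells by factors such as BCL11A. Globin transcription climbs steeply as progenitors become erythroblasts, under GATA1, KLF1 and a distant locus control region, so progenitors stand at the foot of that climb. In bulk RNA, fewer cells making a transcript and less of it per cell cannot be told apart.

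Control libraries held 22445970 to 30246110 gene counts and fasted ones 12797144 to 18225191. Genes of odorant and vomeronasal receptors, which blood cells do not use, gave a background rate between 8.99 and 14.7 counts per kilobase in the controls, and between 14.2 and 16.001 with fasting. Those 1464 genes took 0.162% to 0.358% of control counts and 0.480% to 0.608% of fasted counts. A gene is called above background here when its mean count reached 5 times the background rate times its length. Control library 1 stood apart from the other 5 libraries in the share of its counts that fell on globin genes, so results are given with and without it. Markers of the labelled cell type were present: the 10 progenitor markers (Kit, Gata1, Klf1 and others) summed to 1388 to 2924 CPM (the counts-per-million scale), and 9 of them lay above background. Granulocyte and monocyte markers summed to 3298 to 16278 CPM in the controls and 1291 to 3839 with fasting, led by Mpo (1103 CPM per kilobase), Elane (768) and Ctsg (551). Their part in the globin values was not tested.

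The DNA just upstream of the genes is shown because it is what the adult and embryonic members share or lack beside their very different counts. Each sequence holds the 120 bases before the RefSeq start in GRCm38.p6, 5′ to 3′ on the gene's strand. RefSeq and the annotation used for the counts place several of these starts differently. Capitals mark matches to 4 short motifs, read on either strand. They are CACCC (reverse GGGTG), the box bound by KLF-type factors, and CCAAT (reverse ATTGG), bound by NF-Y. The others are GATAA (reverse TTATC), bound by GATA factors, and TATAA (reverse TTATA), the core of the box bound by the TATA-binding protein.
Hba-a1, chr11:32283552-32283671, plus strand: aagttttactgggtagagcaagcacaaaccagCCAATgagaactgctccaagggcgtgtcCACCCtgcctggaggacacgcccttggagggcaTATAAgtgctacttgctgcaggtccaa
Hba-a2, chr11:32296372-32296491, plus strand: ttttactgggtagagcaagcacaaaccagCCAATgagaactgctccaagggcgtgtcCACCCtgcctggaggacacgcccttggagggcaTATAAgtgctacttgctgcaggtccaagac
Hbb-bs, chr7:103827929-103828048, minus strand: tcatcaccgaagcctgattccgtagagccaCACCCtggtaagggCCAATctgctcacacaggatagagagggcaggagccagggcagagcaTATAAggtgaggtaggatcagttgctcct
Hbb-bt, chr7:103813924-103814043, minus strand: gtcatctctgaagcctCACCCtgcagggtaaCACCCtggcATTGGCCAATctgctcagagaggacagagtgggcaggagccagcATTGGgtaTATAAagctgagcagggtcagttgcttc
Hba-x, chr11:32276480-32276599, plus strand: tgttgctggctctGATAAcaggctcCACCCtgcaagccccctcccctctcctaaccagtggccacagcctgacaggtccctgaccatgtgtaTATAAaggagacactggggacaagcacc
Hbb-y, chr7:103853208-103853327, minus strand: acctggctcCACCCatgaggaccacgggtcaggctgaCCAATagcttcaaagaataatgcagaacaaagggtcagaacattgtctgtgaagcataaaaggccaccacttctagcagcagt

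The windows of Hba-a1 and Hba-a2 were identical at 117 of 117 aligned bases once shifted by 3 bases, so the 2 genes could not be told apart by this stretch. Hbb-bt and Hbb-bs matched at 88 of 119 bases (73.9%) with a shift of 1, and every other pair matched at 29.9% to 40.5%. All 4 adult genes held the CACCC motif together with the CCAAT motif and the TATAA motif, a combination found in 226 of 32851 RefSeq promoter windows of the same length (0.688%). Counted alone, CACCC was in 31.7% of those windows, CCAAT in 21.3%, GATAA in 10.5% and TATAA in 11.8%. In Hbb-bs the CACCC match began 90 bases before the start, the CCAAT match 76 and the TATAA match 29. Hbb-bt had a second CACCC (104 and 89 bases) and 3 matches to CCAAT, of which the reverse one at 80 bases and the forward one at 75 lay end to end. In Hba-a1 the order was CCAAT at 88, CACCC at 60 and TATAA at 27 bases. Of the embryonic pair with an entry, Hba-x held GATAA at 107, CACCC at 95 and TATAA at 28 bases but no CCAAT, and Hbb-y held CACCC at 111 and CCAAT at 83 bases but no TATAA. A match is a description of letters and shows no binding.

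Levels between genes are given per length, as CPM of the library total per kilobase of the deposited gene length (CPM per kb). Hba-a1 (ENSMUSG00000069919.7, GRCm38 chr11:32283511-32284465, plus strand, 3 exons, 812 exonic bases) encodes an adult alpha chain and had the highest level of the family. Its counts were 2321, 6464 and 4178 for controls 1, 2 and 3, against 2311, 4163 and 3070 for fasted libraries 1, 2 and 3. The corresponding levels were 94.5, 302 and 229 CPM per kb against 222, 281 and 254. Control library 1 was the lowest, control library 2 the highest, and the fasted libraries lay between the control extremes. The group means were 209 ± 105 (SD, n = 3) and 253 ± 29.5 CPM per kb (SD, n = 3).

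Hba-a2 (ENSMUSG00000069917.7, chr11:32296489-32297298, plus strand, 3 exons, 667 bases) encodes the other adult alpha chain. It had 679, 1847 and 1372 counts in the controls and 684, 976 and 914 with fasting. Per length this gave 33.7, 105 and 91.6 CPM per kb against 80.1, 80.3 and 92.1. Control library 1 was again lowest, and the groups overlapped. Means were 76.8 ± 38.0 and 84.2 ± 6.85 CPM per kb (SD, n = 3 each).

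Hbb-bs (ENSMUSG00000052305.6, chr7:103826534-103828096, minus strand, 4 merged exons, 768 bases), an adult beta gene, had 974, 2467 and 1853 counts in the controls and 1238, 1909 and 1218 with fasting. Its levels were 41.9, 122 and 107 CPM per kb against 126, 136 and 107, with control library 1 lowest and the groups overlapping. Hbb-bt (ENSMUSG00000073940.3, chr7:103812524-103813996, minus strand, 3 exons, 703 bases), the neighbouring adult beta gene, had 343, 744 and 614 counts against 339, 487 and 461. That was 16.1, 40.2 and 38.9 CPM per kb in the controls and 37.7, 38.0 and 44.1 with fasting. Here too only control library 1 lay away from the rest. Mean levels were 90.5 ± 42.7 and 122.97 ± 15.1 for Hbb-bs, and 31.7 ± 13.5 and 39.9 ± 3.59 CPM per kb for Hbb-bt (SD, n = 3 each, control then fasted).

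The embryonic genes were near, at or below the background. Hbb-y (ENSMUSG00000052187.4, chr7:103851749-103853216, minus strand, 3 exons, 633 bases) had 0, 16 and 19 counts in the controls and 19, 25 and 24 with fasting. Its levels were 0, 0.960 and 1.34 CPM per kb against 2.35, 2.17 and 2.55, so every fasted library was higher than every control library. The same held for 39.1% of the 36508 genes tested below. The 0 in control library 1 allows up to 3 counts, or 0.157 CPM per kb, counting error only. The receptor genes also took a larger share of counts in every fasted library, as given above. Against each library's own background rate, Hbb-y stood at 0, 1.92 and 2.04 times in the controls and 2.11, 2.47 and 2.56 times with fasting. The exact Poisson 95% interval of its count lay above the expected background in 5 of 6 libraries, and control library 1 lay below it. Its highest control and lowest fasted values were closer on this scale than in CPM per kb.

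Hba-x (ENSMUSG00000055609.8, chr11:32276400-32278116, plus strand, 4 merged exons, 938 bases) had 2, 8 and 9 counts in the controls and 7, 0 and 9 with fasting, where background alone would give 8.44 to 15.0. Its Poisson interval held the background in 4 libraries and lay below it in 2. Hbb-bh1 (ENSMUSG00000052217.6, chr7:103841637-103843164, minus strand, 3 exons, 613 bases) had 0, 2 and 1 counts against 2, 0 and 0, below the background of 5.51 to 9.81 expected counts in all 6 libraries. Neither gene was detectable over background at this depth. Embryonic genes made up 0.0463% of all globin counts in control library 1, where the share was lowest (95% Wilson interval 0.0127% to 0.169%). The highest share was 0.609% (0.421% to 0.878%), seen in fasted library 1. Reads amplified without molecular identifiers are not independent molecules, so these intervals cover counting error only.

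**Figure D1:**
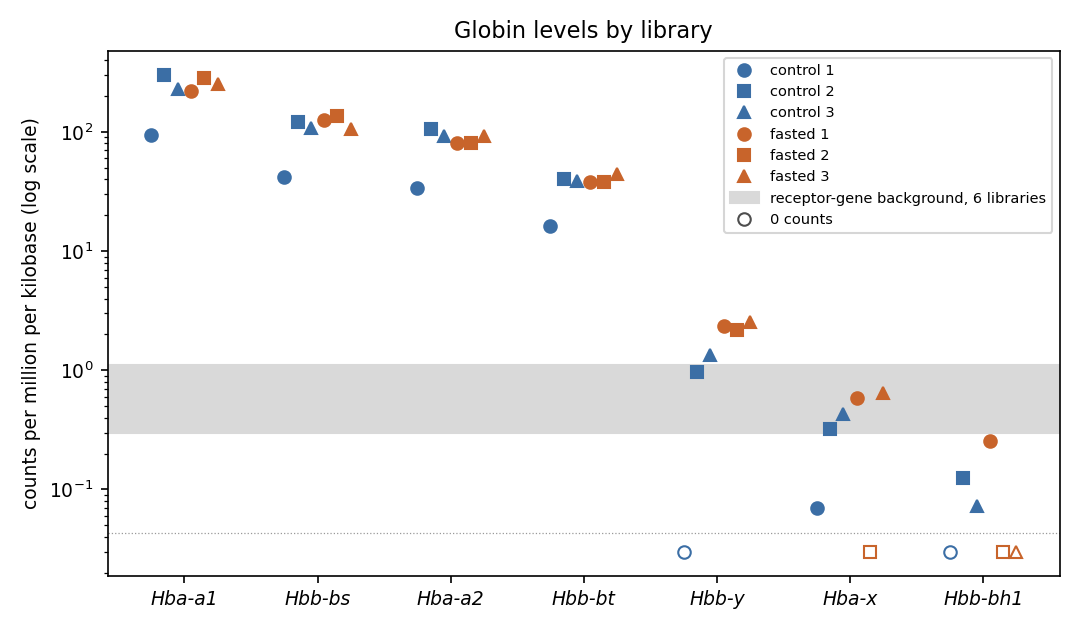
Level of each globin gene in each library, in CPM per kilobase on a log axis, with control libraries in blue and fasted libraries in orange, a marker shape for each library number, and open symbols for 0 counts. The grey band spans the receptor-gene background of the 6 libraries. The 4 adult genes lie far above it, and control library 1 is the lowest point of each of them. The embryonic genes lie near, within or below the band.

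Per length the order was Hba-a1, Hbb-bs, Hba-a2, Hbb-bt, Hbb-y, Hba-x and Hbb-bh1. The first 5 held this order in 6 of 6 libraries. Within a library Hba-a1 was 1.77 to 2.48 times Hbb-bs, Hbb-bs 1.16 to 1.70 times Hba-a2, and Hba-a2 2.09 to 2.62 times Hbb-bt. The gap between the adult and embryonic genes was the widest, with the mean of Hbb-bt 22.98 times that of Hbb-y. Hbb-y exceeded Hba-x in 5 libraries, and Hba-x exceeded Hbb-bh1 in 5. The ranges over libraries overlapped for every pair of neighbours in the order except Hbb-bt and Hbb-y, among the adult genes only through the low values of control library 1. Over the background rate, Hba-a1 stood at 339 times on average, Hbb-bs at 154, Hba-a2 at 119, Hbb-bt at 51.9 and Hbb-y at 1.99 times, against 0.456 for Hba-x and 0.0996 for Hbb-bh1.

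The position of Hba-a2 in that order rests on how reads common to near-identical genes were counted. Of the 50-base windows of the Hba-a2 transcripts, 89.3% (550 of 616) also occurred in Hba-a1, and 72.3% (550 of 761) of the Hba-a1 windows occurred in Hba-a2. Hbb-bs shared 53.2% of its windows with Hbb-bt, and Hbb-bt 58.3% with Hbb-bs. No window of Hba-x, Hbb-bh1 or Hbb-y occurred in another gene. How the authors' counting treated such reads is not given in the sources used here, so levels within each adult pair are uncertain. If shared reads were dropped, counts should be set against the unshared windows alone. On that scale, Hba-a1 had 88.8 ± 28.2, Hba-a2 81.4 ± 25.0, Hbb-bs 24.5 ± 7.73 and Hbb-bt 9.23 ± 2.56 CPM per 100 windows of 50 bases (SD, n = 6 libraries). The ratio of Hba-a2 to Hbb-bs was 0.768 per kilobase, and 3.38, 1.93 and 1.61 per unshared window of 50, 100 and 150 bases, so the order of these 2 genes turned. By the mean over libraries Hba-a1 stayed highest and Hbb-bt lowest of the adult genes on each of these scales. In control library 3, however, Hba-a2 (92.6) lay above Hba-a1 (88.2) per 100 windows of 50 bases.

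**Figure D2:**
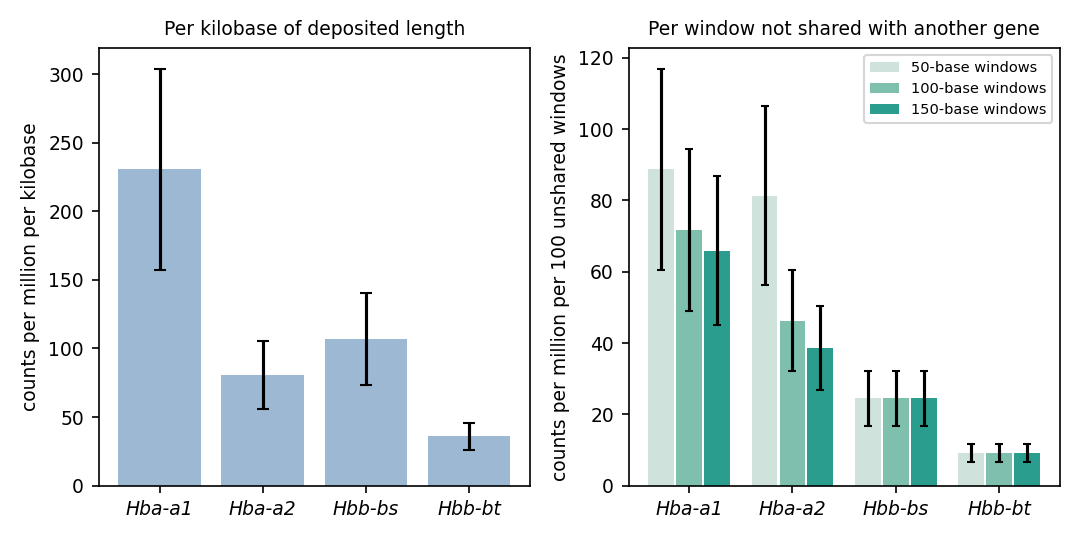
Mean level of the 4 adult globin genes over 6 libraries (error bars, SD), per kilobase of deposited length on the left and per 100 transcript windows found in no other gene on the right, for windows of 50, 100 and 150 bases. Hba-a2 lies below Hbb-bs on the left and above it on the right.

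Alpha to beta balance was compared as the level of Hba-a1 plus Hba-a2 over that of Hbb-bs plus Hbb-bt. The ratio was 2.21, 2.51 and 2.19 in the controls and 1.85, 2.07 and 2.30 with fasting, so the groups overlapped (2.30 ± 0.181 and 2.07 ± 0.225, SD, n = 3 each). Control library 1, low in every adult gene, was not apart in this ratio. Per unshared window the ratio was larger, with means of 3.29 to 5.38 in the control group and 2.94 to 4.75 in the fasted group over the 3 window lengths. Hba-a1 stood at 2.81, 2.87 and 2.501 times Hba-a2 per kilobase in the controls and at 2.78, 3.50 and 2.76 times with fasting. Hbb-bs was 2.60, 3.04 and 2.76 times Hbb-bt in the controls and 3.34, 3.59 and 2.42 times with fasting. Both ratios overlapped between the groups.

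Fasted and control libraries were compared with edgeR's quasi-likelihood test over 36508 genes, scaled by TMM (library factors that take most genes as unchanged), with Benjamini-Hochberg adjustment and a threshold of 0.05. Of the 7 globin genes, 5 passed the filter on low counts, and Hba-x and Hbb-bh1 did not. None was called: 0 of 5 passed, and 0 of 5 had an unadjusted p under 0.05, beside a background in which 4.97% of all tested genes were called (1.15% higher and 3.82% lower with fasting). The log2 fold changes of fasted over control were -0.16 for Hba-a1 (SE 0.30, edgeR adjusted p = 0.723), -0.31 for Hba-a2 (SE 0.29, adjusted p = 0.460), 0.01 for Hbb-bs (SE 0.29, adjusted p = 0.982) and -0.12 for Hbb-bt (SE 0.27, adjusted p = 0.784). Hbb-y had 1.22 (SE 0.74, adjusted p = 0.269 in edgeR), with TMM-scaled CPM of 0, 0.715 and 0.906 in the controls and 1.22, 1.31 and 1.26 with fasting. It was the only 1 of the 5 whose groups did not overlap. Among all tested genes 34.9% did not overlap on that scale, and 19.8% were higher in every fasted library and 15.1% lower. With library totals alone the shares were 43.5% and 39.1%, and 4.40% were lower in every fasted library. DESeq2 and limma-voom also called 0 of them, DESeq2 giving Hbb-y no adjusted p. The adult differences were smaller than or near their standard errors, which leaves room for changes of either sign.

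The sign of the adult values moved with the scaling. With library totals alone, log2 fold changes were 0.28, 0.14, 0.45 and 0.34 for Hba-a1, Hba-a2, Hbb-bs and Hbb-bt, and none was called (12.6% of genes were). The fit limited to the 10641 tested genes above background, called the restricted fit, gave 0.30, 0.15, 0.46 and 0.35, with SE 0.41, 0.39, 0.38 and 0.33. It called no gene at all, although 2111 genes had an unadjusted p under 0.05. TMM placed the median of all tested genes at 0.32 and that of the genes above background at -0.50. Relative to the latter, the median of the 4 adult genes was 0.36 higher, and 0.30 to 0.37 higher over 7 ways of scaling. The offset was not seen without control library 1, when it was -0.05, and it was 0.66 without control library 2.

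**Figure D3:**
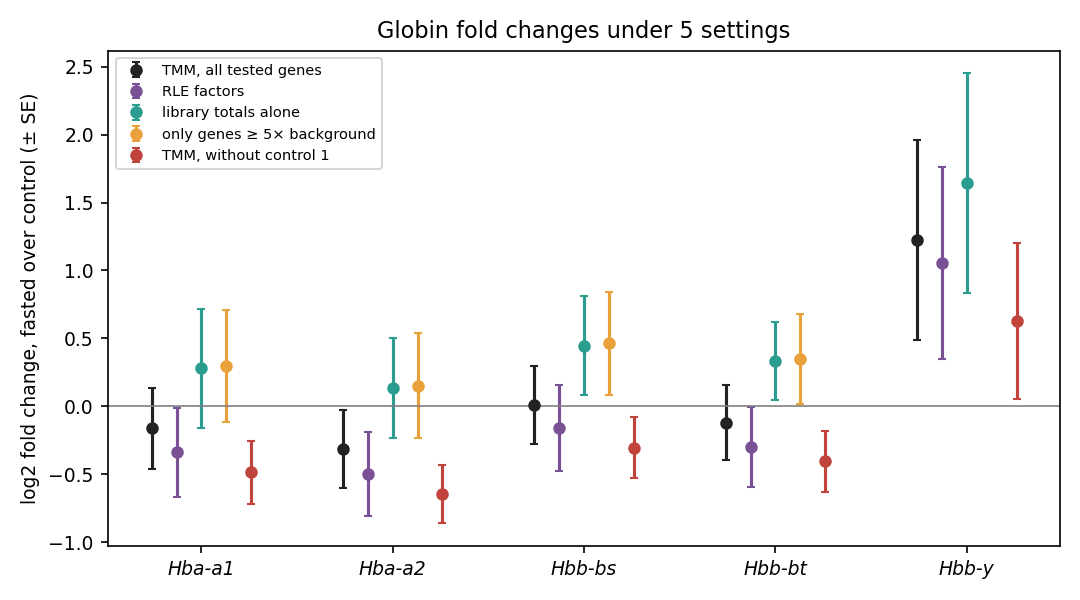
log2 fold change of fasted over control for the 5 tested globin genes, with SE bars, under 5 settings named in the key; Hbb-y was not above background and has no value in the restricted fit. The adult genes straddle 0 and change side with the scaling and with control library 1, while Hbb-y stays positive with wide bars.

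Control library 1 accounted for most of the spread among controls. Adult levels varied 2.49-fold to 3.20-fold between control libraries and 1.15-fold to 1.28-fold between fasted ones. In control library 1 they were 36.6% (Hba-a1), 37.5% (Hba-a2), 35.0% (Hbb-bs) and 40.6% (Hbb-bt) of the mean of the other 5 libraries. The ratio of group means, fasted over control, was 1.21, 1.10, 1.36 and 1.26 for Hba-a1, Hba-a2, Hbb-bs and Hbb-bt. Without that library the ratios were 0.950, 0.855, 1.07 and 1.01, and that of Hbb-y went from 3.07 to 2.05. All globin genes together took 143 CPM of control library 1 (139 to 147 by the Wilson interval), 439 and 358 in the other controls, and 359, 415 and 383 with fasting. The low globin share of control library 1 was not seen in the summed activators, progenitor markers or maturing erythroblast markers. Its summed globin activators were 136% of the mean of the other 5 libraries, its progenitor markers 158% and its maturing erythroblast markers 108%. Such sums follow the most abundant genes of each list. In the same library haem supply and sensing genes stood at 94.7%, and the other globin genes, all below 5 times the background, at 47.4%. The odorant and vomeronasal receptor genes also took a low share there, 0.162% of counts against 0.273% to 0.608% in the other 5 libraries. Megakaryocyte markers stood at 147% in control library 1, mast cell and basophil markers at 205% and granulocyte and monocyte markers at 47.9%. The part of these cell types in the globin share was not tested.

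**Figure D4:**
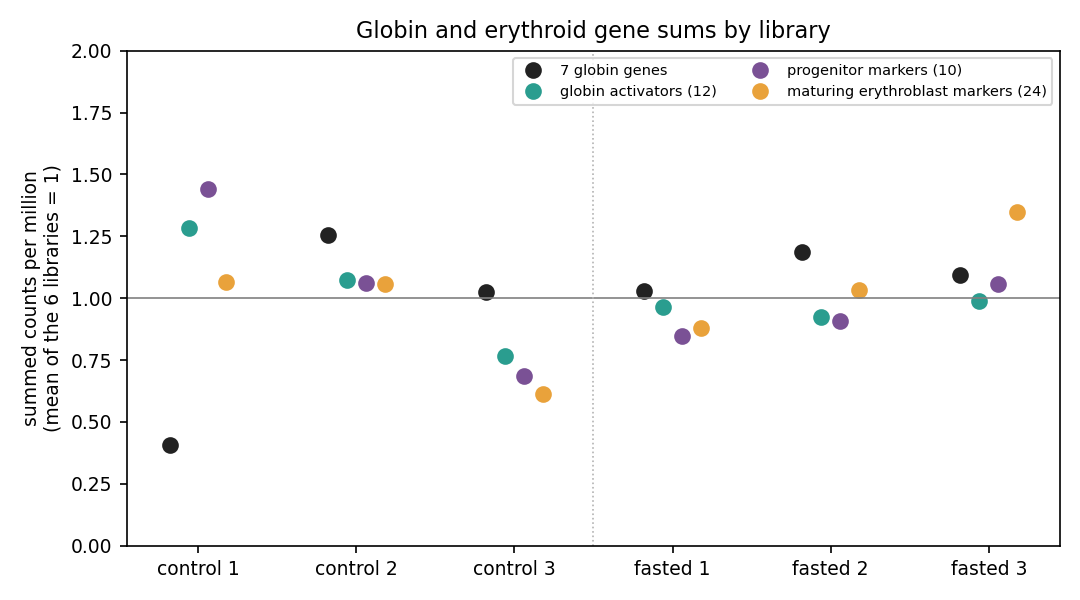
Summed CPM of the 7 globin genes, 12 globin activators, 10 progenitor markers and 24 maturing erythroblast markers in each library, scaled to a mean of 1 over the 6 libraries. The globin sum of control library 1 is the lowest black point, while the other 3 sums of that library lie above 1.

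Of 12 listed activators of globin transcription, 11 lay above background. Their mean levels ran from 3.01 CPM per kb for Zfpm1, which lay below 5 times the background, to 286 for Klf1. Several, such as Sp1 at 4.85 and Tal1 at 9.94, were lower than Hbb-bt, the lowest adult globin gene, at 35.8. All 12 listed factors were tested, 0 were higher and 1 lower, and their median log2 fold change was -0.46, beside -0.50 for the tested genes above background and 0.32 for all tested genes. In the restricted fit their median was 0.04, beside 0.02 for all genes of that fit. Klf1, the CACCC-binding activator of the adult beta gene, averaged 286 CPM per kb. Its levels were 422, 324 and 137 in the controls and 234, 242 and 356 with fasting. The log2 fold change of Klf1 was -0.63 with TMM and -0.08 with library totals, and neither was called. Gata1 averaged 96.1 and Lmo2, a bridging protein of the GATA1 complex, 93.3 CPM per kb. Nfe2, part of the dimer that binds the locus control region, was 155, 77.0 and 62.7 CPM per kb in the controls and 66.2, 48.6 and 57.5 with fasting. It fell by 1.32 on the log2 scale with TMM (SE 0.32, edgeR adjusted p = 0.0405), and its log2 fold change with library totals was -0.77. Control library 3 overlapped the fasted range. Scaled by library totals, 0 of the 12 were called in either direction. The Nfe2 call was also lost in the restricted fit (-0.74, edgeR adjusted p = 0.242) and on leaving out any 1 library but control library 3, with log2 fold changes of -1.62 to -0.71 over the 6 such fits.

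Of 21 genes that silence embryonic globins, 0 were higher and 2 lower, with a median log2 fold change of -0.44 (0.07 in the restricted fit). With library totals alone 2 were higher (Klf3 at 0.66 and Hic2 at 1.05) and 1 lower (Dnmt1 at -0.61). That scaling called 11.8% of all tested genes higher and 0.797% lower. Dnmt1, the maintenance DNA methyltransferase, had 53.9, 40.6 and 39.7 CPM per kb in the controls against 28.8, 28.9 and 29.8, with no overlap. It fell by 1.12 on the log2 scale with TMM (SE 0.24, edgeR adjusted p = 0.0277). By library totals, 4.40% of all tested genes were lower in every fasted library, and by TMM-scaled CPM 15.1%. Myb, a progenitor transcription factor that restrains embryonic globins, fell by 0.88 on the log2 scale with TMM (SE 0.23, edgeR adjusted p = 0.0408). Scaled by library totals, as CPM per kb are, its log2 fold change was -0.37 (edgeR adjusted p = 0.082). Its levels were 26.7, 19.7 and 21.5 CPM per kb in the controls and 18.7, 16.2 and 17.5 with fasting, again with no overlap. Neither passed in the restricted fit, which gave -0.58 and -0.34 (edgeR adjusted p = 0.131 and 0.209). With 1 library left out at a time, Dnmt1 was called in 3 of 6 fits (-1.28 to -0.87), losing the call when control library 2 or either of fasted libraries 1 and 3 was absent. Myb was called in 2 of 6 (-0.9996 to -0.65), those without control library 3 or fasted library 2. Mta2 and Hdac1, subunits of the NuRD repressor complex, had the highest levels of the list at 87.6 and 62.0 CPM per kb.

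Among 16 genes of haem supply and sensing 0 were higher and 1 lower, and their median log2 fold change was -0.28 (0.23 in the restricted fit). Under library totals 1 was higher (Bach1 at 0.81) and 1 lower, beside 11.8% and 0.797% of all tested genes. The lower gene in both was Alas1, the housekeeping form of the first haem synthesis enzyme, at -2.52 (edgeR adjusted p = 1.1e-05), and at -2.04 in the restricted fit (adjusted p = 0.0901). Its levels were 19.8, 28.8 and 36.3 CPM per kb in the controls and 7.99, 5.55 and 6.86 with fasting. Of the later enzymes of the path, Alad stood at 150 and Urod at 80.6 CPM per kb. Of 4 genes that act on free or damaged globin chains, 0 were called and the median was -0.03 (0.46 in the restricted fit). They were led by the chaperone Hspa8 at 1069 and the antioxidant Prdx2, an abundant red cell protein, at 192 CPM per kb, followed by the autophagy kinase Ulk1 at 6.999.

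Maturing erythroblast markers gave 0 calls among 23 tested of 24, with a median log2 fold change of -0.08 (0.47 in the restricted fit). With library totals alone 3 were higher and 0 lower, with a median of 0.44. That scaling called 11.8% of all tested genes higher and 0.797% lower. Carbonic anhydrases Car1 and Car2 averaged 1420 and 1185 CPM per kb and the water channel Aqp1 280, all higher per length than Hba-a1 at 231. Markers of later stages were scarce: Slc4a1 (the band 3 anion exchanger) and Epb42 (band 4.2) lay below 5 times the background at 2.91 and 3.17 CPM per kb, and Icam4 was listed at 0 in every library. The remaining lists mark the progenitors themselves and other cells. Progenitor markers had 0 higher of 10 and a median of -0.74. Megakaryocyte and platelet markers had 0 higher of 7 and a median of -0.78, and Pf4, a platelet chemokine, was lower at -1.36 (edgeR adjusted p = 0.0277). Granulocyte and monocyte markers had 2 lower of 11 (Cebpe -2.75 and Fcgr3 -2.54, median -2.49), mast cell and basophil markers 3 lower of 6 (Mcpt8 -1.72, Cpa3 -1.69 and Ms4a2 -1.39, median -1.14), and lymphocyte markers 0 of 8 (median 0.49). On library totals, 2 of the 8 lymphocyte markers were higher, 1 megakaryocyte and 1 mast cell marker were lower, and 0 progenitor or granulocyte markers were called. Summed levels were 388 to 520 CPM in the controls and 234 to 375 with fasting for megakaryocyte markers. For lymphocyte markers they were 143 to 206 and 194 to 364, and for mast cell markers 105 to 206 and 54.5 to 111. Of the 11 called list genes, Alas1 alone was called in all 6 fits that left out 1 library, and the others were called in 1 to 5. The part of these cells in the globin values was not tested. No list gene was called in the restricted fit, where the medians of the progenitor, megakaryocyte, granulocyte, mast cell and lymphocyte markers were -0.20, -0.48, -2.07, -0.99 and 0.74.

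Levels of the remaining globin genes lay near the background. All 9 (Hbq1a, Hbq1b, Hbb-bh2, Hbb-bh3, Hbb-bh0, Cygb, Ngb, Mb and Adgb) lay below 5 times the rate, between 0.852 times for Hbb-bh0 and 2.93 times for Mb. Of 7 tested, 0 were called, and their median log2 fold change was 0.80 beside 0.53 for all tested genes below 5 times the background. Hbq1a, a theta globin beside Hba-a2, had 11, 3 and 7 counts in the controls and 21, 16 and 24 with fasting (log2 1.83, SE 0.64, edgeR adjusted p = 0.0781). With library totals alone it was called, at 2.35 (edgeR adjusted p = 0.0378), as was Cygb. That scaling called 11.8% of all tested genes higher, and gave a median of 1.01 for tested genes below 5 times the background. Hbb-bh2, inside the beta cluster, had 17, 4 and 18 against 19, 22 and 14 counts. Per length that was 1.01, 0.272 and 1.44 against 2.66, 2.16 and 1.69 CPM per kb, so every fasted library was higher on that scale. The same held for 39.1% of all tested genes by library totals.

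Within 100 kb of the alpha cluster lay 7 genes that are not globins, of which 3 were above background. Snrnp25, a component of the minor spliceosome, was at 99.6 times the rate and 62.6 CPM per kb. Nprl3, whose introns hold the enhancers of the alpha genes, was at 6.31 times and Mpg, a DNA repair glycosylase, at 5.11 times. Around the beta cluster, 13 of 16 such genes were odorant receptors, at 0.204 to 1.25 times the rate of all receptor genes. Their own rate was 6.54, 8.69 and 9.17 counts per kilobase in the controls and 9.97, 14.2 and 10.7 with fasting. Against these close neighbours Hbb-bs stood at 212 times, Hbb-bt at 71.7 and Hbb-y at 2.75 times, and Hbb-bh1 at 0.138. One more neighbour, the pseudogene Dnajc19-ps, reached 67.7 times.

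**Figure D5:**
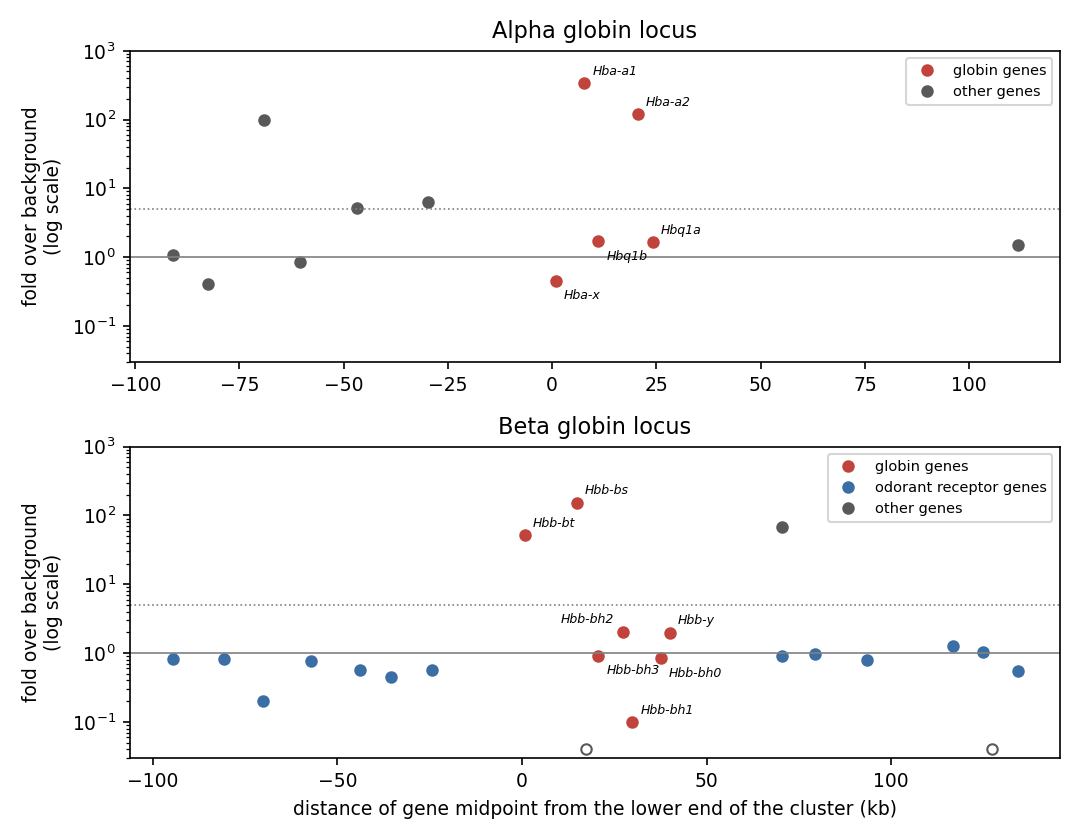
Mean fold over the receptor-gene background (log axis) of each gene within 100 kb of the alpha cluster (top) and the beta cluster (bottom) against distance from the cluster's lower end, with globin genes in red, odorant receptors in blue, other genes in grey and open circles for genes with 0 counts. The solid line is background and the dotted line 5 times background: the adult globin genes rise above both, while Hbb-bh1, Hba-x and the receptors lie around or below the solid line.

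The adult genes varied together over the libraries. Pearson correlations of log2 CPM over the 6 libraries were 0.879 to 0.985 between the 6 adult pairs, a description over libraries of which control library 1 was the lowest in each gene, and over genes that may share reads. Among 10640 genes above background, the 5 most like Hba-a1 were Hist1h2ak (0.993), Nsmce4a (0.989), Rps15a (0.986), Esyt2 (0.981) and Gm48583 (0.980). Hist1h2ak, a replication-dependent histone gene, had 0.628 CPM of the library total in control library 1 and 1.56 to 2.43 in the other 5. Rps15a, which encodes a ribosomal protein of the small subunit, had 141 in control library 1 and 266 to 341 elsewhere on the same scale. The correlations themselves were taken on TMM-scaled values. Hbb-bt, Hba-a2 and Hbb-bs ranked 19, 22 and 31 on this measure, Alas2, the erythroid haem synthesis enzyme, ranked 399 at 0.720, and Klf1 and Gata1 were at -0.33 and -0.36.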

How the data were processed

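The authors deposited raw gene counts for 6 libraries of polyadenylated RNA, with the exonic length of each gene. Per the submitters' processing notes, HISAT2 2.2.1, featureCounts 2.0.1 and GRCm38 were used. The annotation, strand setting and treatment of multiply mapped reads are not given in the sources used here. Columns were matched to libraries by their descriptions, and 0 further columns held sample values. Identifiers were given GENCODE M21 symbols. The 7 globin genes found overlap no other annotated gene.

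Genes kept by filterByExpr were fitted in edgeR 4.0.16 (R 4.3.3; quasi-likelihood, robust, TMM, group only), with p-values adjusted over all tested genes. SE is the size of the log2 fold change over the square root of F. The restricted fit kept genes whose mean count was at least 5 times the background, and background subtraction took rate times length from each count. Alternatives were DESeq2 1.42.0, limma-voom (limma 3.58.1), other scalings and filters, a replicate block and leaving out each library. Leaving out libraries or blocking within the restricted fit, and unshared windows, were chosen after seeing the data. Tests were tried on simulated counts. Sequences are from RefSeq tables of GRCm38.p6, with entries for 6 of the 7 genes. Windows were cut from GRCm38 transcripts and searched in all transcripts of other genes. Summaries used Python 3.11.15 and pandas 2.3.3, with Poisson intervals from scipy 1.17.1.

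The globin genes and all gene lists were chosen with earlier results of these data known. Named genes were the globins, the called genes and the 3 highest per length in each list, up to 4 neighbours within 100 kb per locus, and the 5 genes most correlated with Hba-a1. Slc4a1, Epb42, Icam4, Alas2, Klf3, Hic2 and Bach1 fall outside that rule and were named after their values were seen. Values of some list genes that meet the rule are not reported here. Precision follows the library totals of 12797144 to 30246110 counts.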

Additional observations from a re-analysis of the deposited data

How the results depend on the processing

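None of the 7 globin genes chosen by name and found was called under any of the 25 other settings tried. Their smallest edgeR adjusted p was 0.0705, for Hba-a2 without control library 1. Among the other globin genes, Hbq1a and Cygb were called with library totals alone. Hbb-y stayed positive wherever it was tested, and DESeq2 gave it no adjusted p, as for 11325 genes in all. The adult values were near 0 and changed sign often, and the cause was not tested. Hba-a1, at -0.16, became 0.28 with library totals alone, 0.27 with TMM factors from genes above background, 0.30 in the fit restricted to them and 0.37 after background subtraction. Hba-a2, at -0.31, became 0.14, 0.12, 0.15 and 0.22 in the same order, and Hbb-bt, at -0.12, became 0.34, 0.32, 0.35 and 0.41. Hbb-bs, at 0.01, became -0.16 with RLE factors, -0.16 with DESeq2 and -0.018 with no filter beyond 1 count. Leaving out 1 library at a time gave -0.48 to 0.21 for Hba-a1, -0.65 to -0.01 for Hba-a2, -0.30 to 0.29 for Hbb-bs, -0.40 to 0.091 for Hbb-bt and 0.63 to 1.79 for Hbb-y. In the restricted fit the same step gave -0.06 to 0.63, -0.22 to 0.41, 0.11 to 0.70 and 0.022 to 0.52 for the 4 adult genes. The positive values there were 0.63, 0.39, 0.37, 0.30 and 0.17 for Hba-a1, 0.41, 0.29, 0.20, 0.14 and 0.089 for Hba-a2, and 0.52, 0.52, 0.40, 0.34, 0.28 and 0.022 for Hbb-bt.

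The count of calls over all genes, 1813, was 2973 with RLE factors (89.9% lower), 4587 with library totals (6.34% lower), 4159 with TMM factors from genes above background (6.80% lower), 5301 with DESeq2 (90.9% lower), 2849 with no filter, and 0 in the restricted fit and after background subtraction. The main split was 76.8% lower. Leaving out 1 library gave 7 (without fasted library 3) to 5379 calls (without control library 3), with 190 without control library 2 and 105 without fasted library 1, and 0 to 3 in the restricted fit. Called genes of the lists, 11 in the main comparison, all lower, were 18 with RLE factors and 31 with DESeq2, again all lower. With library totals they were 14 (10 higher, 4 lower) and with TMM factors from genes above background 13 (9 higher, 4 lower). There were 0 in the restricted fit and after subtraction, 1 to 27 leaving out 1 library, and 0 to 2 leaving out 1 library in the restricted fit.

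With the replicate number as a block (replicate block) there were 146 calls and 5 list calls, and 0 of both in the restricted fit, where Hba-a1, Hba-a2 and Hbb-bt had 0.45, 0.31 and 0.46. Deviations of same-numbered libraries correlated at -0.16, 0.13 and -0.27, and 1 of 3 control libraries correlated best with its own number. So few values cannot settle whether the numbers pair the libraries. The ratio of Hba-a2 to Hbb-bs turned from 0.768 per kilobase to 3.38, 1.93 and 1.61 per unshared window. Counts of 0 to 25 per embryonic gene and library limit what can be seen of those genes.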
